A study of Mus musculus with 4 samples.

Results

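The 112 probes described here are the block of late-numbered mouse miRNAs, miR-6236 to miR-6420, on a mouse miRNA chip of 1265 probes. Members were taken by identifier alone, as the probes whose first miRBase identifier lies between MIMAT0024800 and MIMAT0025300, a rule that uses no measured value. Cell-free RNA was extracted from the plasma of 2 aged and 2 young male C57BL6/J mice, labelled with the dye Hy5 and hybridized to 3D-Gene chips, 1 mouse on each chip. The aged mice were 23 to 24 months old and the young mice 6 to 7 weeks old by the labels, and no mouse carried a transgene or had been treated as far as the labels say. Each age has a mouse 1 and a mouse 2. Their values are signal intensities scaled so that the median of the values listed on each array is 25, and a blank means that no value is listed. Since the labels call each sample a separate mouse but give no litter or cage, the p-values measure the spread between these 4 arrays only, and precision is limited by the number of arrays. In plasma, fewer releasing cells and less RNA released per cell cannot be told apart.

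A mature miRNA is a short single-stranded RNA that guides an Argonaute protein to messenger RNAs, and the bases near its 5′ end, called the seed, do most of the pairing with the target. Cells also release some of these RNAs, which is why they can be measured in plasma. miRBase numbers its entries in the order in which they were submitted, so a high number marks a late entry, often one found by deep sequencing, and says nothing about family or function. No function is given here for any member for that reason.

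The deposited values carry identifiers and no names, and names could be set for only 2 members, whose 4 signals the study prints beside a name. They were MIMAT0025165, which is miR-6412, and MIMAT0025108, which is miR-6364. Both names lie inside the range given for the block, and for the other 110 members that range could not be checked. The RefSeq mature sequences of the pair (build GRCm38.p6) are shown because they are the members whose signal can be tied to a sequence, with the seed, bases 2 to 8, in capitals.
miR-6412: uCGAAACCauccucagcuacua
miR-6364: uCGAUCCCcagcacuccuguga
The mature miR-6412 lies at chr10:122648412-122648433 on the plus strand, at bases 74 to 95 of the 97-base gene Mir6412, and within the interval of the lncRNA gene Gm36284, which is on the minus strand. The mature miR-6364 lies at chr16:5215790-5215811 on the minus strand, at bases 64 to 85 of its 86-base gene, and within the interval of the protein-coding gene AU021092. Whether these are exons or introns of the enclosing genes was not analysed here. Both mature RNAs have 22 bases, with a GC content of 45.5% for miR-6412 and 59.1% for miR-6364. They carried the same base at 11 of 22 positions and at 5 of the 7 seed positions. Their seeds differ, and 0 other mature miRNAs of RefSeq share either seed.

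Both begin with the bases UCGA, which only 4 of 1679 mature miRNA names in RefSeq do (0.238%). The other two, which are not members and are shown for comparison with the same bases in capitals, lie at chr11:60728698-60728718 on the plus strand and at chr6:52230094-52230115 on the minus strand.
miR-5100: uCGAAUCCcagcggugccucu
miR-196b-3p: uCGACAGCacgacacugccuuc
This shared start was noticed after the sequences were seen and is given as a description. RefSeq holds 82 mature names numbered from 6236 to 6420, with 70 distinct seeds and a median GC content of 52.3%, against 52.2% over all 1679 names. The block is therefore a numbering range and not a seed family, and its 82 RefSeq names could not be paired with the unnamed probes.

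Fewer members were listed than blank on each array. The aged arrays listed 41 and 44 of the 112 members (36.6% and 39.3%), and the young arrays listed 43 and 33 (38.4% and 29.5%). The array of young mouse 2 listed the fewest, as it did over the whole chip, where it listed 439 probes against 563 and 578 on the aged arrays and 620 on that of young mouse 1. The mean share of members listed was 4.02 percentage points higher in aged than in young mice, with an exact two-sided permutation p of 0.667, and with 2 mice against 2 this test cannot give a p below 0.333. Of the 1153 other probes of the chip, 45.3% and 46.3% were listed on the aged arrays and 50.0% and 35.2% on the young arrays, above the members' share on each array. The members' shares were closer to those of the 470 probes of the next older identifiers (MIMAT0014800 to MIMAT0024799), with 41.1% and 40.6% on the aged arrays and 43.0% and 29.1% on the young arrays. These shares are descriptions, since probes of 1 array are not replicates.

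**Figure D1:**
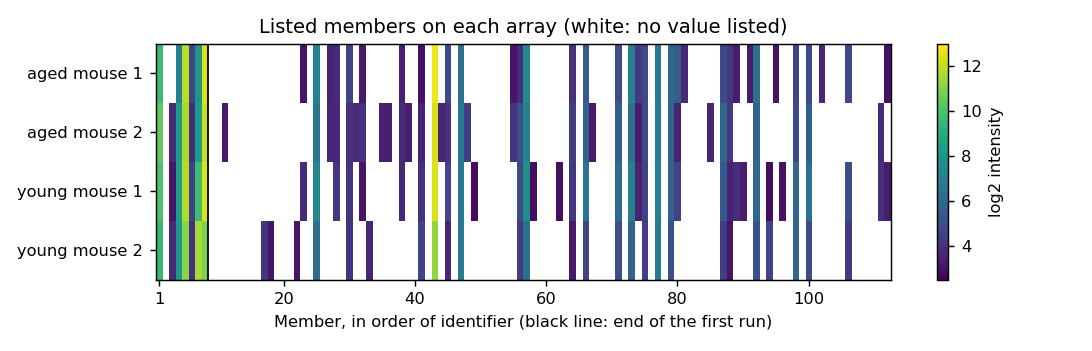
Listing of the 112 members, in identifier order along the x axis, on each of the 4 arrays (rows, aged mice above young mice), with coloured cells for listed intensities and white cells where none is listed; the black line ends the first of the block's 2 identifier runs. The 26 members listed on all 4 arrays include 6 of the 8 in the first run, and 50 columns are white throughout.

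Listing splits the block into 3 classes. A total of 26 members (23.2%) had a value on all 4 arrays, 50 (44.6%) on none, and 36 on 1 to 3 arrays. For comparison, 29.1% of the rest of the chip was listed on all 4 arrays and 34.4% on none. Among the next older identifiers these shares were 24.0% and 38.7%. The map of listed members shows that absent members are spread along the second run, which holds 49 of the 50. Partly listed members stand between complete ones.

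The 36 partly listed members were dim. Of these, 22 were listed once, 7 on 2 arrays and 7 on 3 arrays, and their 57 values ran from 7.1 to 51.0 with a median of 12.2. Only 2 of the 36 had any value above 25, the median of the values listed on an array. MIMAT0025147 had signals of 51.0 and 11.6 in aged mice, against 23.0 in young mouse 1 and a blank in young mouse 2. MIMAT0025173 had 26.4 in aged mouse 1 and a blank in aged mouse 2, against 32.9 and 18.5 in young mice. Neither separates the ages.

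Few partly listed members followed age. Both aged arrays and neither young array listed 2 members, MIMAT0025094 (11.2 and 12.9 in aged mice) and MIMAT0025122 (8.3 and 17.6 in aged mice). Both young arrays and neither aged array listed 1, MIMAT0025161 (7.3 and 24.9 in young mice). Over the whole chip, 456 probes were partly listed, 28 of them on both aged arrays alone and 14 on both young arrays alone. Listing on a single array was more frequent, among members as over the chip. It held for 4 members on the array of aged mouse 1 and 9 on that of aged mouse 2. On those of young mouse 1 and young mouse 2 it held for 5 and 4. Over the whole chip these counts were 46, 83, 85 and 26, in the same order. The lowest value listed on an array was as high as 9.5, and what a blank stands for is not stated in the sources.

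The mean log2 intensities of the 26 members with a value on every array ran from 3.71 to 12.22, against 3.22 to 15.28 over all 362 such probes. Intensities of different probes also depend on how each probe binds, so they place spots on the chip and do not rank the miRNAs by amount. By mean log2 intensity, 3 members were among the 20 brightest of the 362, at ranks 13, 15 and 20, and 13 of the 26 lay below the median of those probes. The brightest, MIMAT0025110, had signals of 6945.2 and 5264.8 in aged mice, against 5603.2 and 2538.1 in young mice. MIMAT0024864 had 5355.9 and 4426.3 in aged mice, against 5371.8 and 1980.6 in young mice. MIMAT0024861 had 3895.1 and 3255.6 in aged mice, against 3560.2 and 2278.4 in young mice. In all 3 the array of young mouse 2 was the lowest, and young mouse 1 lay between the aged mice or, for MIMAT0024864, just above them.

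**Figure D2:**
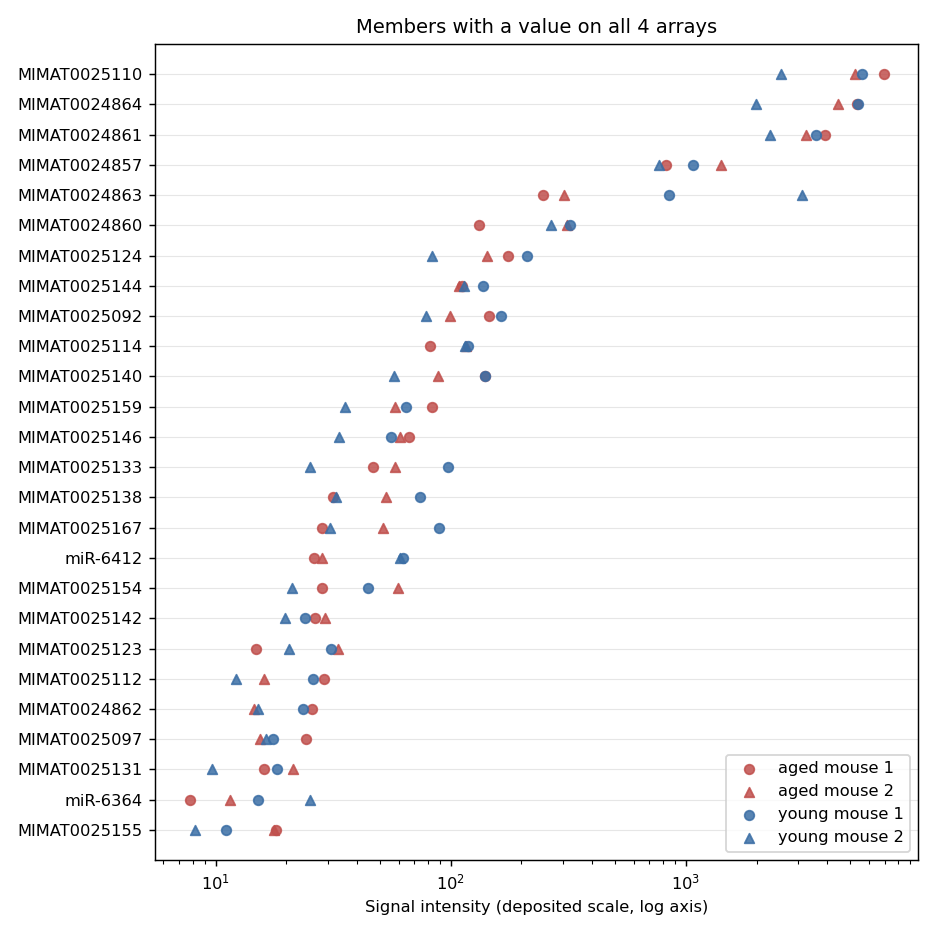
Deposited intensity (x axis, log scale) of the 26 members with a value on all 4 arrays, brightest at the top, with 1 point for each aged and young mouse. Points of the 2 ages overlap in most rows, and the widest separation is in MIMAT0024863, at 246.2 and 304.1 in aged mice against 852.0 and 3104.0 in young mice.

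The bright members came mostly from 1 end of the block. The identifiers form 2 runs, MIMAT0024857 to MIMAT0024864 with 8 probes and MIMAT0025076 to MIMAT0025179 with 104 probes, and the chip carries 9 probes with higher numbers. In the first run 6 of 8 members were listed on all 4 arrays and 1 on 3, while in the second 20 of 104 were listed on all 4 and 49 on none. The first run held 5 of the 6 brightest members, and the median of its mean log2 intensities was 9.66, against 5.48 in the second run. The median log2 difference between aged and young mice was 0.14 in the first run and 0.22 in the second. This split was noticed after the values were seen.

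The block's share of the signal differed between arrays mainly through MIMAT0024863. The members together held 5.01% and 5.56% of all listed signal on the aged arrays, against 5.54% and 8.25% on the young arrays, where young mouse 2 stands apart. The difference between the ages was -1.61 percentage points (exact two-sided permutation p = 0.667). The 3 brightest members held 4.33% and 4.42% of the signal in aged mice and 4.37% and 4.73% in young mice, a narrow range. MIMAT0024863 held 0.0658% and 0.104% in aged mice and 0.256% and 2.16% in young mice. The remaining members held 0.616% and 1.03% in aged mice and 0.913% and 1.36% in young mice. Without MIMAT0024863, an alternative added after seeing the data, the block held 4.95% and 5.45% in aged mice and 5.28% and 6.09% in young mice, and the difference shrank to -0.485 points.

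**Figure D3:**
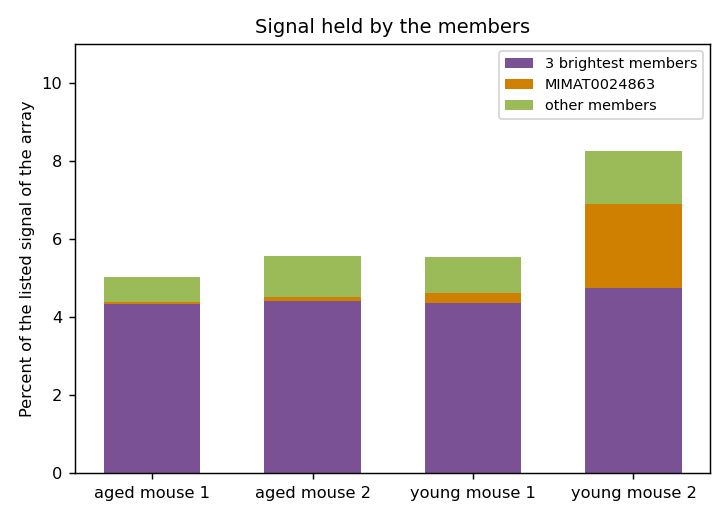
Share of each array's listed signal (y axis, percent) held by the members, stacked as the 3 brightest, MIMAT0024863 and the others, with the aged mice left of the young mice. The 3 brightest hold 4.33% to 4.73% on every array, and MIMAT0024863 takes 2.16% in young mouse 2, against 0.0658% to 0.256% on the other arrays.

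One member passed the test between the ages. MIMAT0024863 had signals of 246.2 and 304.1 in aged mice, against 852.0 and 3104.0 in young mice, so both aged values lay under both young values. It was the 79th and 74th brightest listed probe on the aged arrays, and the 39th and 9th on the young arrays. The mean signal was 275.0 ± 40.9 in aged mice and 1980.0 ± 1590.0 in young mice (SD, n = 2 each), a ratio of 0.139. The log2 difference was -2.57 (limma, Benjamini-Hochberg adjusted p = 0.0072 over 362 probes). Its standard error was 0.60, with a 95% interval of -3.75 to -1.4. The fit found 1 spread for all probes, so the error, interval and p do not rest on this probe's own spread. The difference was the most negative of the 362. The aged mice differed by 1.24-fold and the young mice by 3.64-fold.

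Whether the call held depended on the setting. It was kept with equal medians of the shared probes (-2.84, adjusted p = 1.2e-08), with scaling on the brightest probes (-2.79, 1e-08), with blanks at the lowest value (-2.57, 0.0016), after a filter on dim probes (-2.57, 0.011), with a pseudocount (-2.51, 0.028) and with a replicate block (-2.57, 0.002), all by limma. It was lost under quantile normalization (-3.01, adjusted p = 0.32) and with a trended and robust variance in limma (-2.57, adjusted p = 0.18). Without young mouse 2 the log2 difference was -1.64 and the adjusted p 0.14, and without aged mouse 1 or aged mouse 2 it was -2.42 or -2.72 with an adjusted p of 1.0 or 0.77. In these limma fits the lone mouse is assumed to vary like the 2 mice of the other age. Without young mouse 1 the call was kept, at -3.50. The sign was negative in each of these fits.

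MIMAT0024863 was the 1 probe of 362 called lower in aged mice, so the share called over the chip was 0.276%. No probe was called higher, 0.0% of 362, and accordingly 0 of the 26 members. At an unadjusted limma p under 0.05, 2 of the 26 members passed, both lower in aged mice, against 22 of 362 probes or 6.08%. The call is 1 probe, and the 2 of 26 stand near the share over the chip, so neither count says anything of the block as a group.

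The named pair came next among the members by negative difference. miR-6412 had signals of 26.2 and 28.5 in aged mice, against 62.9 and 60.6 in young mice. The 2 mice of each age lay close together, at 1.09-fold in aged and 1.04-fold in young mice, and the ages were well apart. Its mean was 27.4 ± 1.63 in aged mice and 61.8 ± 1.63 in young mice (SD, n = 2 each), a ratio of 0.443. Its log2 difference of -1.18, with the standard error of 0.60 that all probes share, did not pass after adjustment (limma, adjusted p = 0.82). It was ranked 275th and 261st on the aged arrays, against 192nd and 150th on the young arrays.

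miR-6364 was among the dimmest members, with signals of 7.8 and 11.5 in aged mice, against 15.1 and 25.3 in young mice. The mean was 9.65 ± 2.62 in aged mice and 20.2 ± 7.21 in young mice (SD, n = 2 each), a ratio of 0.478. Its log2 difference was -1.05 with the shared standard error of 0.60 (limma, adjusted p = 0.84). The aged value of 7.8 lay near the lowest values listed on the arrays. The study had picked both miRNAs from these same 4 arrays for a difference with age, so their position is not independent evidence of a direction. Both passed the threshold under the alternatives that gave the arrays equal medians over the shared probes (-1.45 and adjusted p = 0.029 for miR-6412, -1.32 and 0.048 for miR-6364) or scaled them on their brightest probes (-1.39 and 0.031, -1.26 and 0.049).

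In the other direction, the largest log2 difference of a member was in the dimmest one. MIMAT0025155 had signals of 18.0 and 17.7 in aged mice, against 11.1 and 8.2 in young mice, with no overlap. The ratio was 1.85 and the log2 difference 0.90 with the shared standard error of 0.60 (limma, adjusted p = 0.84), the 35th highest of 362. MIMAT0025146 had 66.2 and 61.1 in aged mice, against 55.5 and 33.4 in young mice, and its log2 difference was 0.56 (adjusted p = 0.87 by limma). MIMAT0025142 had 26.6 and 29.2 in aged mice, against 24.0 and 19.8 in young mice, with a log2 difference of 0.35 (adjusted p = 0.88 by limma). None of the 3 passed the test, although both aged values were above both young values in each.

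Counting separation alone, the 2 aged values lay below the 2 young values in 4 of the 26 members and above them in 3. The fourth of the lower ones was MIMAT0025144, with 111.5 and 108.9 in aged mice against 137.5 and 114.0 in young mice, a log2 difference of only -0.18. Over the 362 probes, 9.94% were separated with aged mice lower and 19.9% with aged mice higher, together 29.8%. The members' 7 of 26 thus stood close to the chip as a whole. Among the 10 most negative differences of the 362 probes 3 were members, at ranks 1, 8 and 10, and among the 10 most positive 0 were. Members are 26 of the 362 probes. Ranks 8 and 10 are miR-6412 and miR-6364, which the study had picked from these same arrays for a difference with age.

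In the other members the values of the 2 ages overlapped. MIMAT0024857, the fourth brightest, had signals of 824.7 and 1404.6 in aged mice, against 1074.0 and 771.3 in young mice. MIMAT0024860 had 132.5 and 311.2 in aged mice, against 321.6 and 267.9 in young mice. In both, the 2 aged mice were further apart than the 2 young mice, and the ages overlapped. MIMAT0025124 had 175.1 and 142.4 in aged mice, against 211.5 and 83.2 in young mice. MIMAT0025092 had 144.9 and 99.5 in aged mice, against 163.2 and 78.9 in young mice. In this pair the aged values lay between the 2 young values. MIMAT0025114 had 81.8 and 116.0 in aged mice, against 118.4 and 115.5 in young mice. MIMAT0025138 had 31.5 and 52.9 in aged mice, against 74.3 and 32.5 in young mice. MIMAT0025167 had 28.3 and 51.4 in aged mice, against 89.1 and 30.8 in young mice. These last 3 had negative log2 differences, of -0.26, -0.27 and -0.46, with overlapping ages. MIMAT0025159 had 83.0 and 58.2 in aged mice, against 64.6 and 35.7 in young mice. Its log2 difference was 0.53, also with overlap.

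**Figure D4:**
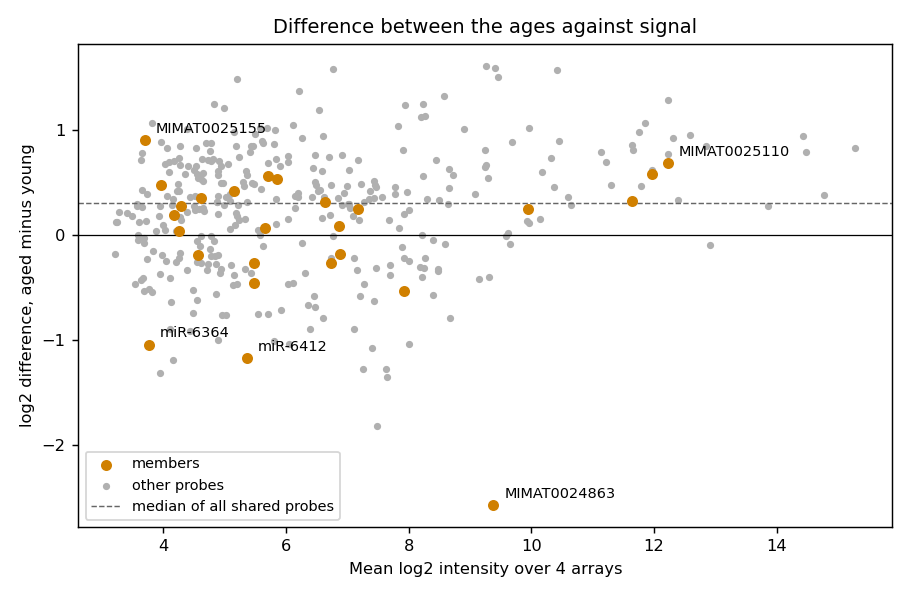
Log2 difference, aged minus young (y axis), against mean log2 intensity (x axis) for the 26 members (orange) and the other 336 probes with a value on all 4 arrays (grey), with the median of all 362 as a dashed line at 0.31. MIMAT0024863, at -2.57, lies below every other probe, and 17 of the 26 members lie above 0.

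Over the 26 members the median log2 difference was 0.22, with 17 positive and 9 negative, against 0.31 over all 362 probes, with 246 positive and 116 negative. It was 0.46 over the 113 probes of the next older identifiers listed on all 4 arrays. These medians move with the scaling of the arrays. The shared probes had median signals of 62.1 and 56.0 on the aged arrays, against 67.9 and 35.2 on the young arrays. They were thus lowest on the array of young mouse 2, which listed the fewest probes (439). Each array was scaled to a median of 25 over its own list, so this does not show a dimmer sample. Under quantile normalization the medians were -0.088 for the members and 0.072 for all probes. With equal medians of the shared probes they were -0.054 and 0.034, and with scaling on the brightest probes 0.0024 and 0.091. No general direction of the block is therefore given.

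For most members the mice of at least 1 age differed from each other by as much as, or more than, the ages did. The median absolute log2 difference was 0.50 between the aged mice and 0.80 between the young mice, while that between the age means was 0.34. Over all 362 probes these values were 0.40, 0.87 and 0.46. The age difference exceeded both within-age differences in 5 of 26 members (19.2%), against 49 of 362 probes (13.5%). These 5 were MIMAT0024863, miR-6412, miR-6364, MIMAT0025155 and MIMAT0025142. As a description across the 26 members, which share an array and its scaling, log2 intensities had a Pearson correlation of 0.971 between the aged arrays and 0.956 between the young arrays, and of 0.903 to 0.981 between an aged and a young array. The lowest of these was between aged mouse 1 and young mouse 2, and it was 0.947 without MIMAT0024863.

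The markers of the cells that feed plasma were read beside these values as far as names allowed. Names could be set only for miRNAs that the study lists as most different between the ages on these same arrays. The directions of these markers with age are therefore not independent evidence. The 3 muscle miRNAs named here of a list of 6, miR-133b-3p, miR-133a-3p and miR-1a-3p, summed to 215.6 and 478.6 in aged mice, against 1394.5 and 557.5 in young mice. The myeloid miR-223-3p had 429.9 and 499.2 in aged mice, against 269.1 and 141.4 in young mice. The muscle sum and MIMAT0024863 were both lower in each aged mouse than in each young mouse. The muscle sum was highest in young mouse 1 and MIMAT0024863 in young mouse 2. The red-cell, platelet and liver miRNAs of the lists carry no name in the files and were not read. Of the red-cell miR-486, only the other arm could be named, and miR-486-3p, added after its values were seen, had 836.1 and 437.1 in aged mice, against 484.5 and 121.3 in young mice. The part of these cell sources in the members' values was not tested.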

How the data were processed

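Plasma RNA of 2 aged and 2 young mice was extracted with a circulating RNA kit, labelled with Hy5 and hybridized to 3D-Gene mouse miRNA chips. The authors deposited signal intensities on a linear scale, with the listed values of each array brought to a median of 25. The sources used here do not state how background was corrected or when a value was left blank. Another 8 intensity columns were left out because their headings do not name a mouse.

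Members were taken by a rule on identifiers alone, but the choice of this block and of the marker lists was made with earlier results of these data known. For the 362 probes with a value on all 4 arrays, log2 intensities were used with no pseudocount, and aged were set against young mice by lmFit and eBayes of limma 3.58.1 (R 4.3.3) without a block. P-values were adjusted by Benjamini-Hochberg over those 362 probes, at a threshold of 0.05. The fit found 1 spread for all probes, which makes every standard error 0.60. The limma step was checked on simulated data in which every probe had the same spread, so the check does not test that assumption. Ratios divide arithmetic means. Listing and signal share were compared with an exact permutation test over mice. The rule for named members took the 10 brightest, the 6 largest log2 differences each way, any past the threshold, those the study names, and up to 4 each way listed on both arrays of 1 age only. A member outside it is named only to answer a count of 5 or fewer. The 2 names were set by matching the 4 signals printed beside them in the study to the deposited values, at 2 significant digits, with 1 probe matching each. Sequences are from RefSeq. Summaries used Python 3.11.15, pandas 2.3.3, numpy 2.4.6 and scipy 1.17.1, and plots used matplotlib 3.10.9.

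The alternatives were quantile normalization, equal medians of the shared probes, scaling on the 439 brightest probes of each array, a filter on dim probes, blanks at the lowest value of the array, a pseudocount of 16, a trended and robust variance, a replicate block, the one-way ANOVA of the methods on linear values (only its count of calls is used), listing at or above 9.5, and each array left out.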

Additional observations from a re-analysis of the deposited data

How the results depend on the processing

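Of the 210 alternatives run on the log2 differences of the 18 members that the rule took with a value on all 4 arrays, 184 kept direction and side of the threshold, 5 lost and 4 gained the threshold, and 17 changed sign. The sign changes were in 8 members, none of them past the threshold. Under quantile normalization they were MIMAT0024864 (-0.048), MIMAT0024861 (-0.44), MIMAT0024857 (-0.34) and MIMAT0025092 (-0.075). With equal medians of the shared probes they were MIMAT0024857 (-0.029), MIMAT0025124 (-0.019) and MIMAT0025092 (-0.19), and with scaling on the brightest probes MIMAT0025092 (-0.13). With each array left out in turn the ranges were -0.14 to 1.30 for MIMAT0024864, -0.14 to 0.63 for MIMAT0024857, -1.15 to 0.084 for MIMAT0024860, -0.42 to 0.92 for MIMAT0025124, -0.44 to 0.61 for MIMAT0025092, -1.22 to 0.31 for MIMAT0025167 and -0.86 to 0.33 for MIMAT0025138. The count of members called lower was 0 under quantile normalization, 0 with a trended and robust variance, 0 by the one-way ANOVA on linear values, 3 with equal medians and 3 with scaling on the brightest probes, against 1 in the limma fit given. The same 2 scalings each called 12 of the 362 probes lower. Members are 26 of the 362, and 2 of the 3 called were picked by the study. An array left out leaves a lone mouse, so calls are not counted. In the fits on all 4 arrays 0 members were called higher, against 4 probes of the chip with equal medians and 6 with scaling on the brightest. After the filter on dim probes 2 of 13 members had both aged values lower and 1 higher, against 4 and 3 of 26 without it. Over all probes that the filter kept, 22 of 181 were lower and 34 higher. With blanks at the lowest value 9 of 62 were higher (155 of 818 probes). Those fills differ between arrays and can separate the ages. With scaling on the brightest 5 of 26 were higher (103 of 362). With an array left out 4 to 12 were lower and 3 to 15 higher. The upper ends, 12 and 15, came without young mouse 2 and without young mouse 1, where 160 and 260 of the 362 probes were separated in the same directions. The median log2 difference of the members ranged from -0.28 to 0.55 with an array left out. The cause was not tested.

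The mouse number as a replicate block left 1 member called lower and 0 called higher. Same-numbered arrays had a correlation of 0.337 between their deviations from the group means over 362 probes and of 0.155 over the 26 members. The study calls 1 and 2 experiments of a duplicated analysis and does not say whether same-numbered arrays were processed together. The block changed no other call. Raw intensities could not be used, because their headings name no mouse, and sequence features were not set against intensity, because only 2 members have a sequence. The ANOVA was not run with an array left out. Without young mouse 2 the members' share listed differed by -0.446 points and the signal they held by -0.252 points. Signals near the floor of the arrays limit the dimmest members.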
